A study of Sus scrofa with 48 samples.

Results

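The heat shock proteins and the DNAJ chaperones were examined in the whole blood transcriptome of growing pigs. They were the spots of the microarray whose gene name begins with HSP followed by a family letter or digit, or with DNAJA, DNAJB or DNAJC followed by a number. The array held 150 such spots, and 126 of them, carrying 47 gene names, were among the 37113 spots that the study retained. The rule used gene names and the study's own filter on spot quality, and no comparison between groups. Blood came from 48 French Large White barrows at 132 days of age, with 12 pigs in each of 4 groups that combined line and diet. The low RFI and high RFI lines were divergently selected for residual feed intake, the difference between the feed a pig eats and the feed that its growth and maintenance would require, so that low RFI pigs are the more feed-efficient. Pigs of each line had free access to a high-fat, high-fiber (HF) or a low-fat, low-fiber (LF) diet. Each sample was from a separate pig, and the groups were low RFI HF, low RFI LF, high RFI HF and high RFI LF. Each pig's RNA was on an array of its own, labelled with a single dye. All values are log2 intensities of a spot minus the median of its array, so a level of 0 is the median retained spot. The levels of different probes are not comparable.

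Heat shock proteins are chaperones: they bind unfolded or newly made proteins and help them fold, and many are induced by heat, oxidative stress and inflammation through the transcription factor HSF1. HSP70 proteins (the HSPA genes) work in cycles of ATP hydrolysis that J-domain proteins of the DNAJA, DNAJB and DNAJC classes start and that exchange factors such as HSPH1 and HSPBP1 reset. HSP90 proteins mature kinases and receptors, the HSPD1 and HSPE1 proteins form the folding chamber of mitochondria, and HSPA5 and HSP90B1 serve the endoplasmic reticulum. Red cell precursors depend on HSP70, which binds their main transcription factor, and mature red cells keep cytosolic chaperones although they no longer make RNA.

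The names are those of the array design, and 44 of the 47 were matched to a pig gene in a RefSeq table of the Sscrofa11.1 assembly. By this match HSPCB, with 6 spots, is HSP90AB1, HSP27 is HSPB1, and HSP70 is HSPA6. HSP70.2 is the pig name of the stress-inducible HSPA1A and HSPA1B pair. These copies and other HSP70 genes are alike in sequence, so the source of the HSP70.2 signal among them is uncertain. HSPC157, DNAJC25-GNG10 and HSPC159 had no match. HSPC157 is annotated as hypothetical and HSPC159 as a galectin-related protein, so these 2 were kept apart from the chaperones. DNAJC25-GNG10 is a read-through name whose spot is described with the G protein subunit GNG10 as well.

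Probes of spots with a line difference below are shown for HSPE1, HSP70.2, HSP90AA1 and HSPCB, 5′ to 3′. In both HSPE1 probes the capitals mark a stretch of 26 bases that they share except for the substitution A11G, counted from the 5′ end of O8477, whose base is given first. The HSP90AA1 sequence was printed on the array under 2 probe names, A_72_P525187 and O8902, which makes these spots a technical repeat.
HSPE1 O8477: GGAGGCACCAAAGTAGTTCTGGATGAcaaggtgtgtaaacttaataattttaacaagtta
HSPE1 A_72_P752325: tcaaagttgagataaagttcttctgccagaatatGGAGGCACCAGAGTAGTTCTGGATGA
HSP70.2 A_72_P088236: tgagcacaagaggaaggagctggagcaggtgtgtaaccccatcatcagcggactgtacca
HSP90AA1 A_72_P525187: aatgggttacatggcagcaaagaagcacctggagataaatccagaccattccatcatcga
HSPCB A_72_P642785: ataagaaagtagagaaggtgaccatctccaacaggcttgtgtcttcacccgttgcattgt

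Most of the retained member spots were at readable levels in both lines. Of the 126 spots, 122 were well above background on each of the 48 arrays, and the median signal over local background ranged from 1.52 for HSPB8, a small heat shock protein, to 1318 for an HSPCB spot. The study's filter used background intensity among its criteria, so a high share was partly set by that filter. It left out 24 of the 150 member spots, 10 of which were well above background on every array. For 13 gene names no spot was retained. Markers of blood cells were read among spots that had passed the same filter. All 8 erythroid, 7 T cell, 4 B cell and 5 neutrophil marker genes found there had a spot well above background on every array. So did all 5 muscle and liver genes of a list not expected in blood, with brightest spots from 2.21 to 313 times background. A signal above background therefore does not identify the tissue here. Arrays lay on 6 slides, each with 2 pigs of every group.

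Between the lines, 3 member spots differed at an adjusted P-value under 0.05 in limma, or 2.38% of the 126 against 2.77% of all retained spots. HSP70.2 and DNAJB13 were higher in low RFI pigs, beside 1.32% of all retained spots called in that direction, and 1 of the 6 HSPE1 spots was lower, beside 1.44%. The criterion of the study's methods, a P-value below 0.01 together with a fold change (FC) over 1.1, was met by 7 member spots, 6 higher and 1 lower in low RFI pigs, where 2.7% and 3.09% of all retained spots were called in these directions. This is 5.56% of the members, beside 5.78% of all retained spots, so the share of members called was near that of the array as a whole. The median line difference of the members, low RFI minus high RFI, was 0.04 on the log2 scale beside 0.02 over all retained spots. It was above 0 in 92 of the 126 member spots, or 73.0%, and in 58.6% of all retained spots. Several spots often read 1 gene in the same pigs, so such counts of spots, here and below, are not counts of independent results. At an unadjusted P-value under 0.05 the members called were 16, or 12.7%, beside 12% of all retained spots. In whole blood, fewer cells of a type and less RNA per cell cannot be told apart.

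**Figure D1:**
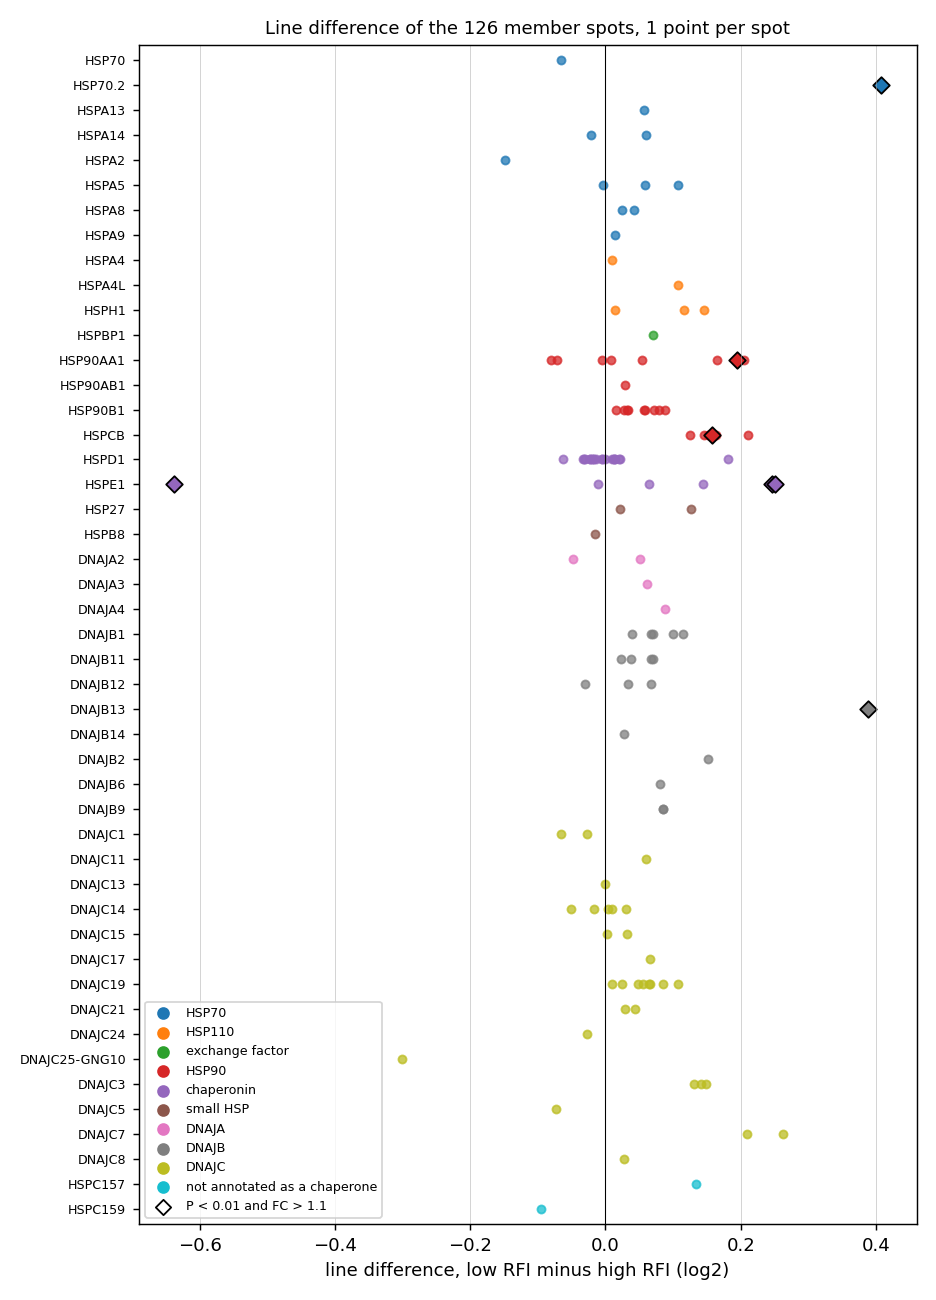
Line difference (low RFI minus high RFI, log2) of each of the 126 member spots, 1 point per spot, with the genes in rows and coloured by family. Diamonds are the 7 spots that met the criterion of the methods. Of the 126 points, 92 lie above 0, HSP70.2 and DNAJB13 stand to the right, and the HSPE1 spots spread from -0.64 to 0.25.

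Among the HSP70 proteins, HSP70.2 was the only gene whose spot met the criterion. Its level was -0.24 at the lowest, 0.03 at the median and 0.63 at the highest in low RFI HF pigs, and -0.04, 0.32 and 0.80 in low RFI LF pigs. In high RFI HF pigs it was -0.56, -0.28 and 0.07, and in high RFI LF pigs -0.82, -0.09 and 0.96. The lines overlapped, but 23 of 24 low RFI pigs were above the high RFI median, and 10 high RFI pigs were below every low RFI pig. The line difference was 0.41 ± 0.08 (SE), an FC of 1.33, with an adjusted P-value of 0.00169 in limma. It was 0.38 ± 0.12 on the HF diet and 0.43 ± 0.12 on the LF diet. One high RFI LF pig read 0.96 while the others of its group were at most 0.13, and without it the difference was 0.46.

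The other 11 HSP70 spots had P-values above 0.05 for line, where 12% of all retained spots were under 0.05. HSPA8, the constitutive HSP70 of the cytosol, had a line difference of 0.03 ± 0.07 (SE) on its 2 spots, with gene values from 5.46 to 6.28 in low RFI pigs and from 5.43 to 6.38 in high RFI pigs. HSPA5, which binds nascent chains in the endoplasmic reticulum, differed by 0.05 ± 0.07 on 3 spots. HSPA2, best known from testis, had a line difference of -0.15 ± 0.10 (SE) with a P-value of 0.149 on gene values in limma, and the spot named HSP70 one of -0.07 ± 0.06. The mitochondrial HSPA9 differed by 0.01 ± 0.08. Whether the line difference of HSP70.2 exceeds that of its relatives was not tested.

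No spot of the exchange factors and HSP110 proteins of the HSP70 cycle met the criterion, beside 5.78% of all retained spots. HSPH1, an exchange factor of the HSP110 class, had a line difference of 0.09 ± 0.07 (SE) on 3 spots, and HSPA4L, of the same class, one of 0.11 ± 0.08. HSPBP1, another exchange factor, differed by 0.07 ± 0.05. No spot of these 3 genes or of HSPA4 had a P-value under 0.05, beside 12% of all retained spots. The 5 spots of the HSP110 class all had higher means in low RFI pigs, where 58.6% of all retained spots did.

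DNAJB13 was the member with the smallest P-value. It is a J-domain protein of the axoneme of cilia and sperm tails. Its level was -0.30 at the lowest, 0.05 at the median and 0.43 at the highest in low RFI HF pigs, and -0.35, -0.01 and 0.46 in low RFI LF pigs. In high RFI HF pigs it was -0.87, -0.51 and 0.02, and in high RFI LF pigs -0.52, -0.24 and 0.06. The 9 highest readings were all from low RFI pigs and the 11 lowest all from high RFI pigs, with an overlap between. The line difference was 0.39 ± 0.07 (SE), an FC of 1.31, with an adjusted P-value of 0.000429 in limma. It was 0.54 ± 0.10 on the HF diet and 0.24 ± 0.10 on the LF diet, and the test of this difference gave a P-value of 0.0373, with an adjusted P-value of 0.902. The gene rests on 1 spot, for which the files give an expressed sequence tag and no transcript position.

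**Figure D2:**
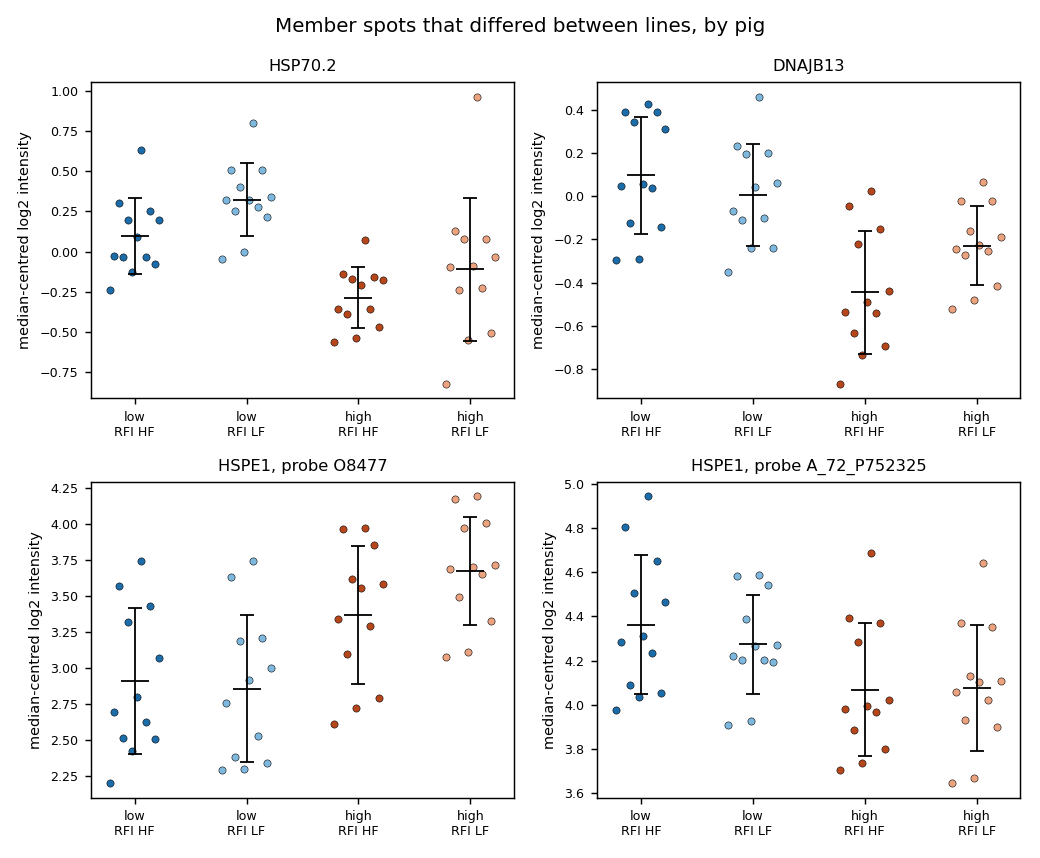
Median-centred log2 intensity of HSP70.2, DNAJB13 and 2 HSPE1 probes in each pig, with 12 pigs per group; the bars are the mean ± SD. HSP70.2, DNAJB13 and HSPE1 A_72_P752325 are higher in low RFI pigs, HSPE1 O8477 is lower, and the lines overlap in each panel.

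The other DNAJB genes had smaller line differences. The median difference of the 18 DNAJB spots was 0.07, beside 0.02 over all retained spots, and the low RFI mean was the higher one on 17 of them, or 94.4%, beside 58.6%. DNAJB13 and DNAJB2 were the DNAJB genes with a P-value under 0.05, on 2 of the 18 spots, beside 12% of all retained spots. DNAJB1, the main partner of inducible HSP70, had 5 spots between 0.04 and 0.11 and a gene value difference of 0.08 ± 0.06 (SE). DNAJB2, which passes HSP70 clients to ubiquitin-dependent degradation, differed by 0.15 ± 0.08 with a P-value of 0.0492 and an adjusted P-value of 0.412 in limma. DNAJB6, which holds back aggregating proteins, differed by 0.08 ± 0.05. A spot without a gene symbol that shares 44 bases with the DNAJB2 probe gave a difference of 0.16.

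The 3 DNAJA genes, general J-domain partners of HSP70, had differences of 0.09 or less in size on each of 4 spots, and DNAJA2, with 2 spots, differed by 0.002 ± 0.06 (SE).

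None of the 31 DNAJC spots met the criterion, beside 5.78% of all retained spots. DNAJC7, which links HSP70 to HSP90, had the highest differences of the class, with 0.26 ± 0.12 (SE) and 0.21 ± 0.12 on its 2 spots. DNAJC3, a cochaperone of the endoplasmic reticulum that also inhibits the stress kinase PERK, had 3 spots between 0.13 and 0.15 and a gene value difference of 0.14 ± 0.06. Its adjusted P-value was 0.281. DNAJC19, of the mitochondrial import motor, had 8 spots between 0.01 and 0.11 and differed by 0.06 ± 0.04. DNAJC5, a J-domain protein of secretory vesicles, differed by -0.07 ± 0.05. The DNAJC25-GNG10 spot had the lowest value, -0.30 ± 0.13, with a P-value of 0.0269 and an adjusted P-value of 0.297 in limma. A spot of another name that shares 33 bases with its probe gave -0.29.

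Of the 24 HSP90 spots, 2 met the criterion, both higher in low RFI pigs, where 2.7% of all retained spots were called in that direction. The low RFI mean was the higher one on 21, or 87.5%, beside 58.6% of all retained spots. All 6 spots of HSPCB, the constitutive cytosolic HSP90, had higher means in low RFI pigs, by 0.13 to 0.21. On gene values the difference was 0.16 ± 0.06 (SE), with an adjusted P-value of 0.192 in limma. The HSPCB spot that met the criterion, A_72_P642785, ranged from 3.67 to 4.49 around a median of 4.14 in low RFI pigs and from 3.58 to 4.32 around 3.94 in high RFI pigs. There 22 of 24 low RFI pigs were above the high RFI median, for a difference of 0.16 ± 0.05. The spot named HSP90AB1 differed by 0.03 ± 0.06. Its probe is the reverse complement of an HSPCB probe over 30 bases, so it reads the other strand there.

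HSP90AA1, the stress-inducible cytosolic HSP90, had 8 spots that did not go together. Line differences ran from -0.08 to 0.20, 5 of them above 0, and the gene value differed by 0.06 ± 0.07 (SE). The spot A_72_P525187 met the criterion, with 0.19 ± 0.07 and a P-value of 0.00737. Its technical repeat O8902 gave 0.16 ± 0.07 and a P-value of 0.0192, so that 1 of 2 spots with the same sequence was called. In low RFI pigs A_72_P525187 had readings of 3.02 to 3.96 around a median of 3.50, and in high RFI pigs of 2.76 to 3.80 around 3.28. HSP90B1, the HSP90 of the endoplasmic reticulum, had 9 spots between 0.02 and 0.09 and differed by 0.05 ± 0.08.

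The mitochondrial chaperonin gave the clearest contrast between probes. HSPD1, which forms the folding chamber, had 20 spots in 8 stretches that do not share a run of 20 bases, and none of them met the criterion, beside 5.78% of all retained spots. Its gene value ranged from 1.60 to 2.36 in low RFI pigs and from 1.74 to 2.41 in high RFI pigs, with a line difference of -0.0007 ± 0.06 (SE). Of its spots, 19 were between -0.06 and 0.02, and A_72_P682104 gave 0.18. On that spot 1 low RFI LF pig read 5.89 and the others of its group at most 2.48, and without that pig the difference was 0.03.

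HSPE1, the lid of the chamber, had spots that differed between lines in opposite directions. O8477 was at 2.20 at the lowest, 2.75 at the median and 3.75 at the highest in low RFI HF pigs, and at 2.29, 2.84 and 3.74 in low RFI LF pigs. In high RFI HF pigs it was 2.62, 3.45 and 3.97, and in high RFI LF pigs 3.08, 3.69 and 4.19. The signal of this spot fell by 0.64 ± 0.13 (SE) on the log2 scale in low RFI relative to high RFI pigs, with an adjusted P-value of 0.00185 in limma. The 9 lowest readings were all from low RFI pigs and the 7 highest all from high RFI pigs. Relative to other HSPE1 spots the signal fell into separate ranges of pigs, and whether it reads the amount of HSPE1 transcript alone was not tested.

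A_72_P752325, which shares the 26-base stretch, went the other way. It ranged from 3.91 to 4.94 around a median of 4.27 in low RFI pigs and from 3.64 to 4.69 around 4.02 in high RFI pigs. Its difference was 0.25 ± 0.08 (SE), with a P-value of 0.00399 and an adjusted P-value of 0.0986. A_72_P746004, which lies further along the HSPE1 transcript, gave 0.25 ± 0.08 with an adjusted P-value of 0.0980. After removal of group means these last 2 spots varied together over the 48 pigs, with a Pearson r of 0.92 and a Spearman rho of 0.90, each with a permutation p of 1e-05, the smallest that 100000 permutations can give. Without the 2 pigs farthest from the median r was 0.90. This pair was chosen after its values were seen. For O8477 no r is given, since the pigs fell into separate ranges. Of the remaining HSPE1 spots, A_72_P137646 gave 0.06 ± 0.05, A_72_P073221 gave -0.01 ± 0.06 and A_72_P725658 gave 0.14 ± 0.13. On the last, 1 high RFI HF pig read 0.52 and the others of its group at least 3.09, and without it the difference was 0.02. The HSPE1 gene value, the mean of spots that moved apart, differed by 0.01 ± 0.06.

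**Figure D3:**
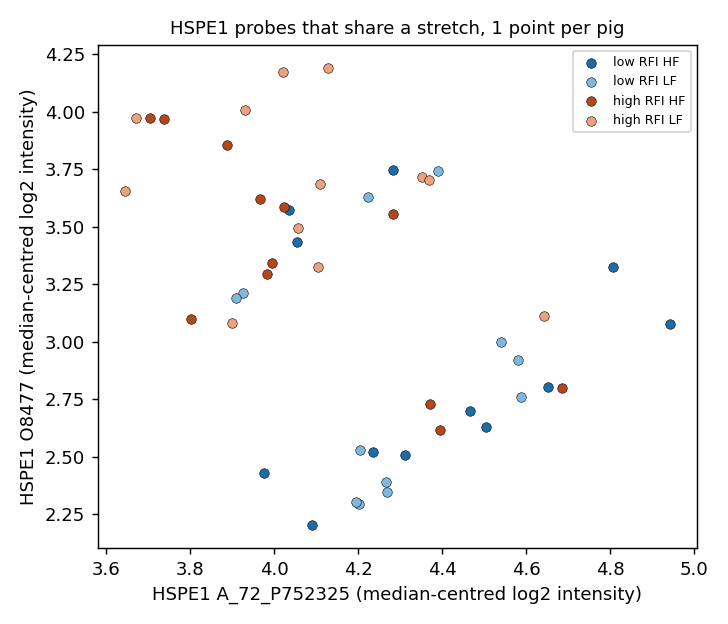
HSPE1 O8477 against HSPE1 A_72_P752325 (median-centred log2 intensity), 1 point per pig, coloured by group. The pigs lie in separate bands, and the lowest band on the vertical axis holds mostly low RFI pigs.

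No spot of the small heat shock proteins had a P-value under 0.05 for line, beside 12% of all retained spots. HSP27, abundant in stressed cells, had a line difference of 0.07 ± 0.07 (SE) on 2 spots and HSPB8 one of -0.02 ± 0.08. The names not annotated as chaperones gave 0.13 ± 0.07 for HSPC157 and -0.10 ± 0.08 for HSPC159. On gene values, 2 of 47 members had an adjusted P-value under 0.05, HSP70.2 and DNAJB13, or 4.26% beside 3.29% of all 10946 gene names.

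Grouped by compartment, the 7 genes of the endoplasmic reticulum (HSPA5, HSPA13, HSP90B1, DNAJB9, DNAJB11, DNAJC1 and DNAJC3) had 24 spots. The median line difference of these spots was 0.06, and the low RFI mean was the higher one on 21, or 87.5%, beside 58.6% of all retained spots. These spots include 9 of HSP90B1 and 4 of DNAJB11, so they are not independent of each other. No spot met the criterion, beside 5.78% of all retained spots. A P-value under 0.05 was found for 2, both of DNAJC3, beside 12% of all retained spots. DNAJB9 and DNAJB11, which help HSPA5 clear and fold proteins there, had gene value differences of 0.09 ± 0.07 (SE) and 0.05 ± 0.07, and DNAJC1, a membrane J-domain protein, one of -0.05 ± 0.07. The 7 mitochondrial genes (HSPA9, HSPD1, HSPE1, DNAJA3, DNAJC11, DNAJC15 and DNAJC19) had 39 spots with a median difference of 0.01, and 24 of them, or 61.5%, were higher in mean in low RFI pigs, close to the share of the whole array. The 3 spots among these 39 that met the criterion, beside 5.78% of all retained spots, were all of HSPE1. DNAJA3, the J-domain partner of HSPA9, differed by 0.06 ± 0.06, and DNAJC15, of the import motor, by 0.02 ± 0.05.

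Within slides, HSP70.2, DNAJB13, HSP90AA1 A_72_P525187 and HSPCB A_72_P642785 were higher in low RFI pigs on 6 of 6 slides. The slide differences ran from 0.06 to 0.64 for HSP70.2 and from 0.24 to 0.59 for DNAJB13. HSPE1 O8477 was lower on 6 of 6 slides, with differences from -0.35 to -1.01, and the 2 opposing HSPE1 spots were higher on 5 of 6. With slide as a block in limma the adjusted P-values were 0.00230 for HSP70.2, 0.000232 for DNAJB13 and 0.00111 for HSPE1 O8477. The block brought 1 more member spot under 0.05, HSPE1 A_72_P752325, which was higher in low RFI pigs, at 0.0456 against 0.0986 without the block. That made 4 member spots, beside 3.53% of all retained spots.

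**Figure D4:**
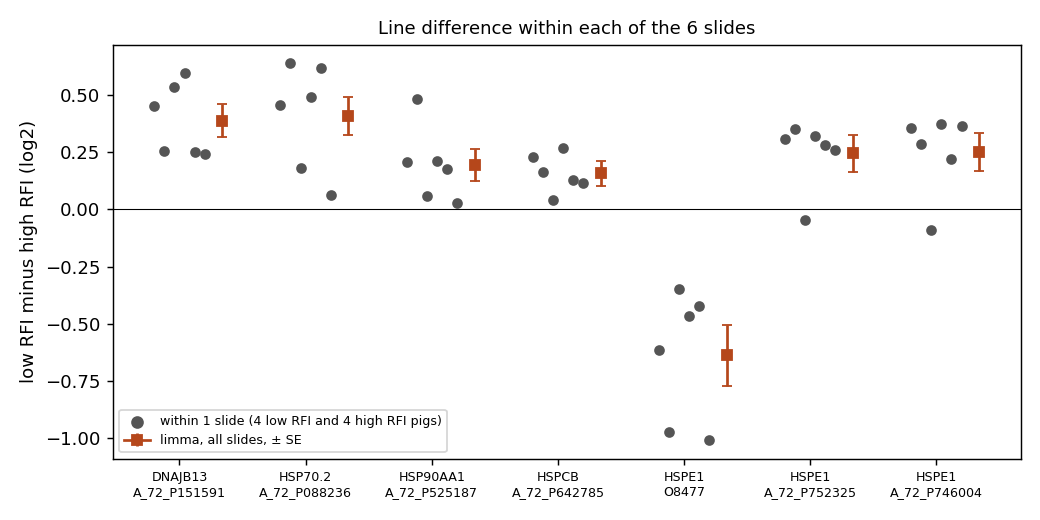
Line difference (low RFI minus high RFI, log2) of the 7 spots that met the criterion, within each of the 6 slides (grey points, means of 4 low RFI and 4 high RFI pigs) and over all slides in limma (squares, ± SE). Of the 7 spots, 2 HSPE1 spots have 1 slide on the other side of 0.

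No member spot met the criterion for diet in limma, nor in the analysis of variance of the methods, beside 0.245% of all retained spots, and at an adjusted P-value under 0.05 limma called 0 spots on the whole array. At an unadjusted P-value under 0.05 it called 2 member spots, 1.59% beside 1.64% of all retained spots, both lower on the HF diet. HSP70.2 had a mean of -0.10 ± 0.29 (SD, n = 24) on the HF diet and 0.11 ± 0.41 on the LF diet, a difference of -0.20 ± 0.08 (SE) with a P-value of 0.0183 in limma and an adjusted P-value of 0.9999. With the replicate number as a block HSP70.2 met the criterion for diet, as did 0.42% of all retained spots. HSPA8 A_72_P061586 differed by -0.15 ± 0.07 with a P-value of 0.0338. On gene values the diet difference was -0.06 ± 0.07 for HSPH1, -0.05 ± 0.06 for DNAJB1 and -0.05 ± 0.07 for HSP90AA1, with P-values of 0.415, 0.475 and 0.469. For the interaction of line and diet no member spot had a P-value under 0.01, beside 0.264% of all retained spots, and 1, DNAJB13, was under 0.05, or 0.794% beside 2.28%.

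Values of 7 pairs of chaperones were correlated across pigs, and pairs of other genes were not computed for comparison. After removal of group means, HSPA5 and HSP90B1 of the endoplasmic reticulum had a Pearson r of 0.82 and a Spearman rho of 0.84 over the 48 pigs, and HSPD1 and HSPE1 had 0.77 and 0.79. The HSPE1 value here is the mean of its 6 spots, O8477 included. HSPH1 had an r of 0.65 and rho of 0.64 with HSP90AA1, 0.63 and 0.66 with HSPA8, 0.53 and 0.53 with DNAJB1, 0.49 and 0.48 with HSP70.2 and 0.44 and 0.51 with HSPA4. All 7 pairs computed had Benjamini-Hochberg adjusted permutation p of 0.0015 or less for both measures. Without the 2 pigs farthest from the median of the first gene, r was from 0.45 for HSPH1 and HSP70.2 to 0.81 for HSPA5 and HSP90B1. The RNA amount and quality of a sample are shared by its genes, and their part in these relations was not tested.

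Of a list of 54 other genes of the pathway (among them HSF transcription factors, BAG proteins, HSP90 cochaperones, exchange factors, subunits of the TRiC and prefoldin complexes, and chaperones and disulfide isomerases of the endoplasmic reticulum such as CALR, CANX and PDIA3), 45 had a retained spot. Of their 94 spots, 1 met the criterion for line, or 1.06% beside 5.78% of all retained spots, and 0 for diet, beside 0.245%. It was PFDN1, a prefoldin subunit that hands chains to the TRiC chaperonin, with a line difference of 0.20 ± 0.06 (SE) and an adjusted P-value of 0.0708 in limma. The next was a spot of CHORDC1, an HSP90 partner induced by stress, with 0.18 ± 0.07 and a P-value of 0.0133, and the other CHORDC1 spot gave 0.03 ± 0.06 and a P-value of 0.601. The median difference of the list was 0.04, and 75 of 94 spots had higher means in low RFI pigs, where 58.6% of all retained spots did.

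Blood cell markers also differed between the lines. For comparison, 58.6% of all retained spots had higher means in low RFI pigs. An adjusted P-value under 0.05 was found for 3.29% of all gene names, and an unadjusted one for 12% of all retained spots. All 4 B cell genes had lower means in low RFI pigs, 2 of them, MS4A1 and BLNK, at an adjusted P-value under 0.05, with a median difference of -0.21. All 8 erythroid genes had higher means, 1 of them, SLC4A1, at an adjusted P-value under 0.05, with a median of 0.13. Of the 5 neutrophil genes, 4 were lower in mean, 1 of them, CXCR2, at an adjusted P-value under 0.05, with a median of -0.42. Of the 7 T cell genes, 6 had higher means in low RFI pigs, 3 of them at an unadjusted and 0 at an adjusted P-value under 0.05, with a median of 0.13. Of the 4 monocyte genes, 3 were lower in mean, with a median of -0.11, and CD14, at -0.47, had an adjusted P-value of 0.0365. The NK cell genes were split, 3 of 5 higher in mean with a median of 0.13, and 2 of 3 platelet genes were higher with a median of 0.02, with no adjusted P-value under 0.05 in either list. A summed level is the log2 of the sum of the unlogged gene values of a list, so it mostly follows the brightest genes. In the erythroid list the brightest spots of the genes ran from 30.4 to 8791 times background. The summed erythroid level ranged from 9.77 to 11.12 in low RFI pigs and from 9.78 to 11.03 in high RFI pigs on the log2 scale. The summed B cell level ranged from 4.01 to 5.37 and from 4.60 to 5.21, and the neutrophil level from 6.06 to 8.51 and from 6.43 to 8.86. The summed T cell level ranged from 4.86 to 5.36 in low RFI pigs and from 4.69 to 5.67 in high RFI pigs. The part of the cell markers in the differences of the chaperones was not tested.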

How the data were processed

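Whole blood RNA of 48 pigs was measured on Agilent 1-colour arrays. The authors deposited the scanner intensity of each spot and its local background (Agilent Feature Extraction 10.7.3.1). They also deposited log2 values of 37113 spots that passed their filters, made in R 3.0.2 per the submitters' processing notes. These log2 values were the median pixel intensity minus the array median, without background subtraction, and were rebuilt from the scanner files within 5e-14 for 47 arrays. For high RFI HF replicate 1 the deposited column repeats 1 value in 37090 entries, so it was rebuilt the same way. Precision is limited by the number of arrays, and no reading of a non-control spot was saturated.

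A model of line, diet and interaction with sum-to-zero coding was fitted to each retained spot, and to the mean of the spots of each gene name, with limma 3.58.1 in R 4.3.3 (lmFit and eBayes), with Benjamini-Hochberg adjustment over all spots or genes. The rule for naming took spots called for line, diet or interaction, the 15 member genes with the lowest line P-values on gene values, the gene with the most spots of each family, and names not annotated as chaperones. On simulated data for line over 37113 spots, 82% of changes of 0.5 and 99% of changes of 1 on the log2 scale were recovered. Correlations used 100000 permutations (two-sided) in Python 3.11.15 with numpy 2.4.6, pandas 2.3.3 and scipy 1.17.1, and figures matplotlib 3.10.9. DNAJA1 is not among the retained members, so its planned pair with HSPA8 was not run. Alternatives tried were the methods' analysis of variance, background-corrected signals centred on the median or the 75th percentile, normexp with an offset of 50 and quantile normalization, other spot filters, a slide or replicate block, another prior, and other handling of the repeated column. One marker gene of the lists is not reported here. Members and lists were chosen with earlier results of these data known.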

Additional observations from a re-analysis of the deposited data

Results flagged for a closer look

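Of the member spots, 10 were outside the study's retained table although they were well above background on all 48 arrays. The median signal over local background was 76.1 for HSPD1 A_72_P610034, 29.0 for HSPH1 A_72_P591989, 11.9 for DNAJC30 A_72_P275399 and 5.30 for DNAJC30 O3327. It was 7.97 for DNAJB12 A_72_P429004, 6.27 for DNAJC11 O9327 and 4.02 for DNAJA4 O1953. For HSPA1L A_72_P135981 it was 4.38, for DNAJB4 O10459 2.27 and for DNAJC4 O14260 2.20. HSPA1L, DNAJB4, DNAJC4 and DNAJC30 have no retained spot. In the limma fit over all non-control spots their line differences were -0.04 ± 0.12 (SE) for HSPA1L, -0.0002 ± 0.07 for DNAJB4, 0.02 ± 0.05 for DNAJC4, and -0.03 ± 0.08 and -0.01 ± 0.05 for DNAJC30. HSPD1 A_72_P610034 gave 0.01 ± 0.06 and HSPH1 A_72_P591989 gave 0.10 ± 0.10, beside 0.09 on the retained HSPH1 spots.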

How the results depend on the processing

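The number of member spots with an adjusted P-value under 0.05 for line was 3 or 4 under 9 of the 11 alternatives, beside 1.52% to 3.53% of all spots fitted. The number that met the criterion of the methods was 7 to 10 under the same 9, beside 3.94% to 6.73% of all spots fitted. Interaction calls stayed at 0 in all 11, beside 0.0377% to 0.569%. Where high RFI HF replicate 1 kept its deposited column with the repeated value, these counts were 1 and 4, beside 0.714% and 2.71% of all retained spots. With the replicate block they were 5 and 11, beside 4.03% and 6.98% of all retained spots. There 1 spot, HSP70.2, met the criterion for diet, beside 0.42% of all retained spots. The opposing HSPE1 spots A_72_P752325 and A_72_P746004 then had adjusted P-values of 0.0188 and 0.0272 for line in limma. Replicate numbers were not taken to pair pigs in the main fit, and whether they mark blocks of pigs was not settled. Same-numbered pigs of different groups had a median correlation of deviations of 0.20, and 44 of 72 such pairs, not all, were over 0.1. Pigs of other numbers had a median of 0.09 on the same slide (33 of 72 over 0.1) and -0.04 on other slides (268 of 720), so same-numbered pigs were the more alike. The cochaperone list had 2 called spots on the background-corrected signal centred on the median, beside 6.45% of all retained spots. The direction of all 7 named spots held under every alternative. On the repeated column as deposited DNAJB13 at 0.26, HSP70.2 at 0.28 and HSPCB A_72_P642785 at 0.21 were no longer called, and HSP90AA1 A_72_P525187 at 0.18 was not called on the background-corrected signal centred on the median. All 7 correlated pairs stayed under 0.05 with slide means removed, with r from 0.33 to 0.87. The alternative that leaves out the pig with an extreme reading was chosen after seeing the data. Dim spots such as HSPB8, at 1.52 times background, limit what can be seen.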

Other observations

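The difference between HSPE1 O8477 and HSPE1 A_72_P752325 in the same pig, in log2 units, fell into 3 separate ranges over the 48 pigs. It lay between -1.92 and -1.48 in 21 pigs, between -0.82 and -0.35 in 19 pigs and between -0.03 and 0.30 in 8 pigs. The gaps between the ranges were 0.67 and 0.31, and the widest gap inside a range was 0.10. The lowest range held 17 low RFI and 4 high RFI pigs, the middle range 7 and 12, and the highest range 0 and 8. Pigs of the lowest and middle ranges were on all 6 slides, and those of the highest on 5. Measured against HSPE1 A_72_P746004 in place of A_72_P752325, the widest gaps again separated 21, 19 and 8 pigs, and all 48 pigs were in the same range as before. Both differences hold O8477, and the 2 reference spots varied together at an r of 0.92, so this is no independent check. The ranges were noticed in the data, no test was made on them, and their cause was not tested.

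Outside the retained table, 2 dim member spots had a P-value under 0.01 for line. HSPA2 O8053, well above background on 47 arrays, had a line difference of 0.19 ± 0.06 (SE) with a P-value of 0.00383 in limma, while the retained HSPA2 spot gave -0.15. A second HSP70.2 spot, A_72_P015686, was well above background on 20 arrays only and gave 0.19 ± 0.07 with a P-value of 0.00691, beside 0.41 on the retained spot. Both were picked after their values were seen.

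Spots printed with the same sequence show the error between spots of 1 array, and not that of extraction, labelling or hybridization. For 13 member spots with an identical 60-base spot elsewhere on the array, the SD over pigs of the difference between the 2 spots had a median of 0.11, from 0.08 to 0.19. The SD over pigs of a member spot had a median of 0.26.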
